A study of Livoneca redmanii with 3 samples.

Results

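The comparison of low salinity with control was described for the assembled genes of Livoneca redmanii, a fish-parasitic isopod of the family Cymothoidae, sampled as whole animals. Contigs were summed to their assembled gene, and a gene was kept when it had more than 20 counts over the control and the low-salinity library together. This rule kept 3303 of 26084 assembled genes. The animals came from Tilapia zilli hosts of Lake Qarun and were then held in aquaculture. Controls had 35 PSU water at 26 °C. In the low-salinity group the water was diluted gradually from 35 PSU to 8 PSU, with no temperature given in the labels. A low-temperature library, from animals brought from 26 °C to 10 °C with no salinity given, is set beside the comparison where its counts bear on the same genes. All of these are wild-collected animals with no stated genotype, and the labels give no age, sex, number of animals or pooling for any library. Each condition had 1 library, so no difference has a replicate check, no test was run, and every interval is a 95% interval that covers counting error only.

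Most marine crustaceans keep their hemolymph near the salt content of sea water, and those that live in dilute water take up ions across gills and related epithelia. The sodium pump (Na+/K+-ATPase), the proton pump, carbonic anhydrase and chloride cotransporters are the proteins best known for that uptake, and free amino acids serve as osmolytes inside cells. Mobile genetic elements are stretches of DNA that copy or move themselves: retrotransposons encode a reverse transcriptase with ribonuclease H, endonuclease or integrase domains, and DNA transposons encode a transposase. RNA carrying such sequence can come from the elements themselves or from longer transcripts that contain them.

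The control library held 2142836 counts and the low-salinity library 1434390, and the low-temperature library held 2782324. Of all assembled genes, 15203 had a count in control or low salinity, 13976 in control and 11147 in low salinity. The kept genes held 97.75% of the control counts and 98.49% of the low-salinity counts. The 10 most abundant genes took 46.89% and 54.81% of the counts. The series' design text records that all samples were replaced, and not what changed. Genes that every living tissue uses were almost absent from the control and the low-salinity library: the 114 cytosolic ribosomal protein genes had 20 and 30 counts there and 21401 in low temperature. What the RNA of these 2 libraries represents is therefore in question, and every ratio below compares their contents as deposited. At the count minimum, 91 kept genes had 21 counts and 84 genes left out had 20. Ratios are low salinity over control after TMM scaling of these 2 libraries, which multiplies the raw ratio by 2.0967. A gene with equal raw counts, of which there were 39, therefore has a log2 ratio of 1.07. A count of 0 was set to a floor of 3 counts per library, which is 0.00014% of the control and 0.000209% of the low-salinity library, and a fold against it is a lower bound for that floor only.

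Most kept genes lay within 2-fold of each other in the 2 libraries, and more lay below that range than above it. In low salinity 211 genes (6.39% of 3303) were at least 2-fold higher and 454 (13.7%) at least 2-fold lower. The median log2 ratio was -0.02 and the middle 50% of genes ran from -0.59 to 0.48. The counting interval left out equal levels for 183 of the higher genes (5.54%) and 318 of the lower genes (9.63%). It lay wholly past 2-fold for 45 and 69. Over all kept genes it lay wholly above equal levels for 596 (18.0%) and wholly below for 566 (17.1%), and both shares together grow with abundance, to 54 and 21 of the 78 genes with more than 5000 counts. Scaling by total counts shifts every log2 ratio by -0.489 and gave 69 higher and 923 lower genes, so each direction stated here is relative to the middle of the kept genes.

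The ratio moved with abundance. Among 1497 genes with 21 to 50 counts over both libraries the median log2 ratio was -0.14, and 295 were at least 2-fold lower. Among 172 genes with more than 1000 and up to 5000 counts the median was 0.31, which total counts take below 0. Among 78 genes with more than 5000 counts it was 0.60, with 8 genes at least 2-fold higher and 2 at least 2-fold lower. The median was near 0.60 in that most abundant group both for the 31 genes with mobile-element text, at 0.59, and for the 39 with no annotation, at 0.61. How far the composition of the libraries and the scaling set this gradient was not tested.

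**Figure D1:**
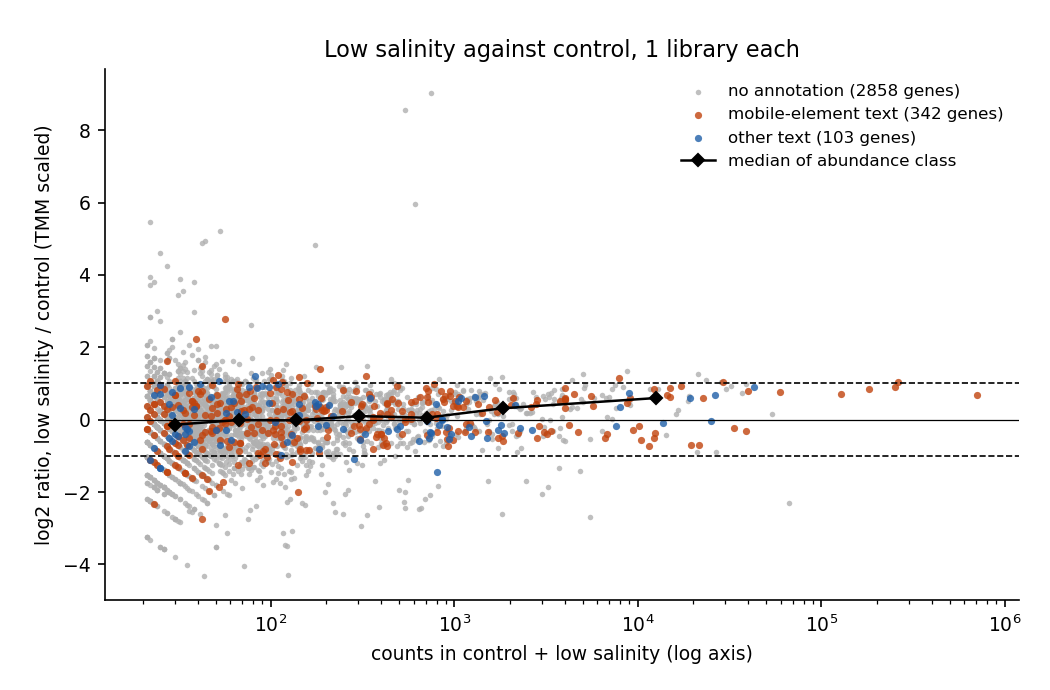
Log2 ratio of low salinity over control (vertical axis) against the summed counts of each kept gene in both libraries (horizontal, log axis), coloured by annotation class, with dashed lines at 2-fold. The cloud is centred near 0 at low counts and above 0 past 5000 counts, where the median was 0.60; the unannotated gene TRINITY_DN3_c0_g1 stands below it at -2.29.

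Genes of mobile elements held a large share of the counts, and a larger one in the low-salinity library. Genes with any mobile-element text held 56.724% of all counts in control (56.657% to 56.790%, exact binomial) and 63.932% in low salinity (63.853% to 64.010%). Genes with other text held 5.6336% and 5.2337%, and genes with no annotation 37.643% and 30.834%. A gene enters a class when any of its contigs carries the text. With the class set contig by contig the mobile-element shares were 48.382% and 54.974%, and without the most abundant gene 46.845% and 54.106%. In the low-temperature library mobile-element genes held 5.0061%. These libraries come from whole animals, so fewer cells of a type and less RNA per cell cannot be told apart.

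TRINITY_DN4_c0_g1, described as an endonuclease-reverse transcriptase with a zinc finger, had 398227 counts in control, 307101 at low salinity and 85223 at low temperature. It was 18.58% of the control and 21.41% of the low-salinity counts, a scaled ratio of 1.62 (interval 1.61 to 1.62). It was therefore the largest single item in both libraries and above the middle of the kept genes in low salinity, within the 2-fold range. TRINITY_DN1960_c0_g1, a reverse transcriptase gene, had 131570, 130246 and 9596 counts, a log2 ratio of 1.05 and a scaled ratio of 2.08 (2.06 to 2.09). Its raw counts were nearly equal, and its share of the library was 6.14% in control and 9.08% in low salinity. TRINITY_DN0_c1_g1, a ribonuclease H gene, had 132133 counts in control and 118737 in low salinity (log2 ratio 0.91). TRINITY_DN24_c0_g1 (0.86), TRINITY_DN18_c0_g1 (0.71) and TRINITY_DN24_c0_g3 (0.77) lay in the same range, and TRINITY_DN0_c3_g1, with no annotation and 34937 and 18632 counts, was at 0.16.

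1 of the 8 most abundant genes went the other way. TRINITY_DN3_c0_g1, which carries no annotation, had 60462 counts in control (exact Poisson interval 59981 to 60946), 5894 at low salinity (5744 to 6046) and 20781 at low temperature. It took 2.822% of the control library and 0.4109% of the low-salinity library, and was 4.89-fold lower (4.76 to 5.03). A second gene of the same assembly number, TRINITY_DN3_c1_g1, had 5131, 377 and 3176 counts and was 6.49-fold lower (5.85 to 7.23). Both genes had their lowest counts in the low-salinity library.

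Retrotransposon genes did not share a direction. The 342 kept genes with mobile-element text had 16 members at least 2-fold higher and 24 at least 2-fold lower, 4.68% and 7.02% against 6.39% and 13.7% of all kept genes, and a median log2 ratio of 0.07 that total counts take below 0. Within them the texts separated. The 43 genes described as K02A2.6-like carry a name taken from a Caenorhabditis elegans protein, counted here with the integrase, transposase and Tf2 texts. Of these, 40 had a log2 ratio below 0, with a median of -0.56. For 28 (65.1%, against 17.1% of all kept genes) the interval lay wholly below equal levels, and for 0 wholly above. They summed to 64464 counts in control, 20458 at low salinity and 2073 at low temperature, a summed scaled ratio of 0.665. At 2-fold this class held 4 lower genes (9.3%, against 13.7% of all kept genes) and 0 higher (against 6.39%). Its genes had a median of 145 counts over both libraries. Among all kept genes with more than 100 and up to 200 counts, 24.3% of intervals lay wholly below equal levels.

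The 116 genes described as ribonuclease H, the domain that removes the RNA strand during reverse transcription, lay higher. Their median log2 ratio was 0.39 under TMM scaling and below 0 under total counts, with 78 members above 0 and 38 below. The interval was wholly above equal levels for 47 (40.5%, against 18.0% of all kept genes) and wholly below for 20 (17.2%, against 17.1%). Their summed counts were 519011 in control and 415745 in low salinity, a summed scaled ratio of 1.68. The 40 endonuclease-reverse transcriptases had a median of 0.38, which total counts also take below 0, and the interval was wholly above equal levels for 21 of them (52.5%) and wholly below for 5 (12.5%). The 130 genes described as reverse transcriptase (RNA-dependent DNA polymerase) were spread on both sides, with 69 above 0 and 61 below under TMM scaling. Their median was 0.07, which total counts take below 0. Of these genes, 7 (5.38%, against 6.39% of all kept genes) were at least 2-fold higher and 10 (7.69%, against 13.7%) lower. The reverse transcriptase and ribonuclease H texts share 29 genes, so these classes are not separate sets. The ribonuclease H genes had a median of 298 counts over both libraries and the endonuclease-reverse transcriptases 460.5, against 57 for all kept genes. At higher counts intervals leave out equal levels at smaller ratios. Among all kept genes with more than 200 and up to 500 counts, 37.0% of intervals lay wholly above equal levels and 23.5% wholly below.

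The 16 genes described as Tf2-type elements, named for a fission yeast retrotransposon, had a median of -0.29 with 12 below 0 and none past 2-fold either way. DNA transposon texts were few: 8 genes described as transposase IS4 had a median of 0.44 and 5 described only as transposase 0.28, both of which total counts take below 0. The list of integrase, transposase and Tf2 texts, which includes the K02A2.6-like genes, held 84 genes with a median of -0.35. Of these, 1 (1.19%, against 6.39% of all kept genes) was at least 2-fold higher and 7 (8.33%, against 13.7%) lower. By median, the K02A2.6-like and Tf2 texts thus lay lower than the middle of the kept genes. The transposase, ribonuclease H and endonuclease texts lay higher. No test of that difference was run.

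**Figure D2:**
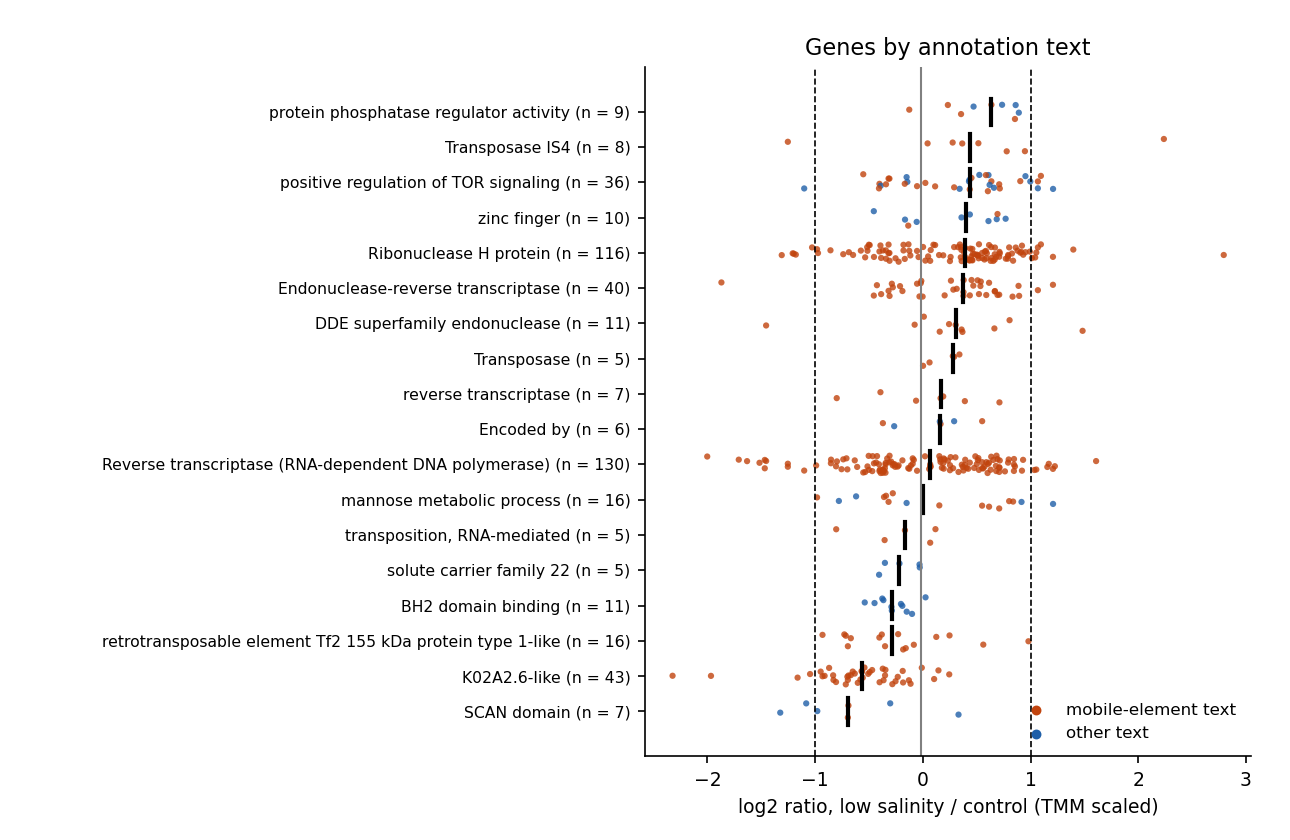
Log2 ratio of low salinity over control for each gene (points) in the 18 annotation texts with at least 5 kept genes, ordered by median (black bars), with dashed lines at 2-fold and colour for whether the gene carries mobile-element text. K02A2.6-like genes lie mostly left of 0 with a median of -0.56, ribonuclease H genes mostly right with a median of 0.39 (below 0 under total counts), and genes with several texts appear more than once.

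The largest K02A2.6-like gene illustrates that class. TRINITY_DN22_c0_g1, whose contigs also carry SCAN domain, Tf2 and zinc finger protein 24 (ZNF24) texts, had 16668 counts in control, 4906 at low salinity and 208 at low temperature. Its log2 ratio was -0.70, or 1.62-fold lower (1.57 to 1.67). Some smaller members went further: TRINITY_DN1017_c1_g1 had 108, 23 and 4 counts and was 2.24-fold lower (1.42 to 3.68). TRINITY_DN55_c11_g1 had 91 counts in control, 21 at low salinity and 0 at low temperature and was 2.07-fold lower (1.28 to 3.50). TRINITY_DN2224_c0_g1 (85 and 21 counts, log2 ratio -0.95) and TRINITY_DN826_c0_g1 (146 and 37, -0.91) lay just short of 2-fold, the latter with 8.20% of its counts in contigs that carry the text. The lower bound of each of these intervals was below 2-fold.

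The SCAN domain is a protein-binding domain of vertebrate zinc finger factors that is also found in sequences derived from retrotransposons. The 7 genes with that text had a median log2 ratio of -0.70 and 6 were below 0. TRINITY_DN2497_c0_g1 had 231 counts in control, 52 at low salinity and 1 at low temperature and was 2.12-fold lower (1.56 to 2.92). TRINITY_DN1017_c0_g6 had 91, 22 and 1 and was 1.97-fold lower (1.23 to 3.30). Of the 8 kept genes under the assembly number of this gene and TRINITY_DN1017_c1_g1, 7 lay below 0, and the unannotated TRINITY_DN1017_c1_g2, with 2 and 23 counts, lay at 4.59.

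Among annotated genes with at least 100 counts, the lowest ratio was that of TRINITY_DN785_c0_g1, a reverse transcriptase with 126 counts in control, 15 at low salinity and 3 at low temperature, 4.01-fold lower (2.34 to 7.37). The highest was that of TRINITY_DN4288_c0_g1, with 82, 103 and 85 counts and a scaled ratio of 2.63 (1.95 to 3.56). It carries ribonuclease H text and the name DDX11, a DNA helicase in other animals. Its contigs went both ways. Contig i3 had 50 and 9 counts in control and low salinity, a ratio of 0.377 (0.163 to 0.775). Contig i5 had 16 and 46 (ratio 6.03) and contig i7 had 8 and 29 (7.60). TRINITY_DN330_c1_g1, named PDZPH1P and described as a reverse transcriptase, had 3812 counts in control, 4051 at low salinity and 154 at low temperature, a ratio of 2.23 (2.13 to 2.33). Its reverse transcriptase contigs i1 and i4 had ratios of 1.75 and 1.72. Contig i8, which carries the PDZPH1P name without reverse transcriptase text, had 570 and 1357 counts and a ratio of 4.99. TRINITY_DN6922_c0_g1 (157 and 173 counts, ratio 2.31, 1.85 to 2.89), TRINITY_DN2189_c12_g4 (52 and 58, 2.34, 1.58 to 3.47) and TRINITY_DN8_c4_g1 (69 and 74, 2.25, 1.60 to 3.17) were also described as reverse transcriptases. In TRINITY_DN6922_c0_g1 contig i3 had 152 and 119 counts (ratio 1.64), contig i4 had 5 and 27, and contig i2 had 0 and 27. Of the ribonuclease H genes, TRINITY_DN1936_c0_g1 had 58 and 57 counts (ratio 2.06, 1.40 to 3.02) and TRINITY_DN1596_c1_g1 had 51 and 52 (2.14, 1.42 to 3.21). TRINITY_DN1960_c0_g1, above, was the remaining one. All 8 of these highest annotated genes carried mobile-element text, as did 342 of the 445 annotated kept genes. Their raw counts in the 2 libraries were close to each other, so their place past 2-fold rests on the scaling.

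Among genes with text outside the mobile-element class, the ratio furthest from equal levels was that of TRINITY_DN1_c1_g1. It carries the name cox3, subunit 3 of cytochrome c oxidase, the last enzyme of the mitochondrial respiratory chain. TRINITY_DN1_c1_g1 had 686 counts in control (635.6 to 739.3), 119 at low salinity (98.6 to 142.4) and 2712 at low temperature. It was 2.75-fold lower in low salinity (2.26 to 3.37), and its whole interval lay past 2-fold. The text stands on contigs that hold 1.12% of the gene's counts, so the value describes the assembled gene rather than the annotated contig. The authors' deposited table, which holds 1 contig per gene, lists this gene with a log2 fold change of 1.99 and an adjusted p of 0.442.

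Other named cellular genes were few and close to the middle. The beta-actin gene ACTB (TRINITY_DN765_c0_g1) had 483 counts in control, 224 at low salinity and 56 at low temperature, a log2 ratio of -0.04 (ratio 0.972, 0.826 to 1.14). Histone genes lay lower: TRINITY_DN142_c0_g1, described as histone H3, had 1121, 379 and 57 counts and was 1.41-fold lower (1.25 to 1.59). TRINITY_DN227_c0_g1 (H3F3C, 543 and 184 counts, log2 ratio -0.49) and TRINITY_DN263_c0_g1 (HTB1, an H2B histone, 699 and 254, -0.39) lay beside it. All 3 intervals left out equal levels, and none of the 3 genes reached 2-fold. Single contigs with more than 20 counts ran from -3.52 to 1.75 in the actin gene. In TRINITY_DN142_c0_g1 they ran from -2.52 to 2.22.

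Texts of defence and cell death named few kept genes. TRINITY_DN69_c1_g1, described as immunoglobulin-like, had 143 counts in control, 39 at low salinity and 0 at low temperature, 1.75-fold lower (1.22 to 2.56). TRINITY_DN32079_c0_g1, named for the apoptosis inhibitor XIAP, had 21, 4 and 60 counts, and its interval for the fold lower ran from 0.845 to 10.0. That interval includes equal levels. The 11 genes described as BH2 domain binding, a phrase that belongs to the BCL2 family of cell death regulators, had a median log2 ratio of -0.29 with 10 below 0, and 9 intervals (81.8%, against 17.1% of all kept genes) lay wholly below equal levels. They are abundant genes, with a median of 1228 counts over both libraries, at which intervals leave out equal levels at small ratios. Their largest member, TRINITY_DN69_c0_g1, had 9477 counts in control, 4216 at low salinity and 71 at low temperature (log2 ratio -0.10). Another member, TRINITY_DN55_c1_g2, shares its assembly number with 7 kept genes of mobile-element text. TRINITY_DN294_c0_g2 shares its number with a gene described as solute carrier family 22. Whether genes with the BH2 text encode cell death regulators was not tested.

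Genes described by positive regulation of TOR signaling, a text on a nutrient-sensing growth pathway, numbered 36, of which 21 also carried mobile-element text. Their median log2 ratio was 0.43 under TMM scaling, below 0 under total counts, with 4 genes (11.1%, against 6.39% of all kept genes) at least 2-fold higher and 1 (2.78%, against 13.7%) lower. TRINITY_DN2615_c0_g1, which also carries a mannose metabolism text, had 39 counts in control, 43 at low salinity and 122 at low temperature, a ratio of 2.31 (1.46 to 3.66). TRINITY_DN4335_c0_g1 had 26, 26 and 75, a ratio of 2.10 (1.17 to 3.76). The 9 genes described as protein phosphatase regulators had the highest median of all texts with at least 5 genes, 0.64, with 8 above 0 and 0 past 2-fold. Their largest member by counts outside the mobile-element class was TRINITY_DN6_c0_g1, described by the WD40 region of Ge1, an enhancer of mRNA decapping, with 22942, 20292 and 972 counts and a ratio of 1.85 (1.82 to 1.89).

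Some cellular gene names stood on genes of mobile elements. TRINITY_DN182_c0_g1, named EFTUD1 for a factor that matures ribosomes and described as a reverse transcriptase, had 8923 counts in control, 2550 at low salinity and 231 at low temperature, 1.67-fold lower (1.60 to 1.74). TRINITY_DN8_c0_g1, named estA for a lipase and described also as a reverse transcriptase, had 2224, 1522 and 77 counts and a ratio of 1.43 (1.34 to 1.53). TRINITY_DN333_c0_g2, with MAP kinase and reverse transcriptase texts, had 522, 279 and 163 counts and a ratio of 1.12 (0.966 to 1.30). Of 10 kept genes with protease text, 8 carried mobile-element text as well, and 0 were past 2-fold in either direction. The 17 kept genes with zinc finger or other DNA-binding text had a median log2 ratio of -0.04, again with 0 past 2-fold.

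Ion pumps and genes of osmolyte metabolism were almost absent from both libraries. None of the 22 assembled genes described as ion-transport ATPases passed the count minimum: together they had 2 counts in control, 6 at low salinity and 5125 at low temperature. The 9 genes of osmolyte metabolism had 1, 0 and 3231 counts. Counts this low in both libraries allow no comparison of these genes at 8 PSU. The control library as a whole had 2142836 counts and the low-temperature library 2782324, and what sets the difference in these genes was not tested. Of 78 genes described as solute carriers, aquaporins or carbonic anhydrases, 8 were kept. All 78 together had 20683 counts in control, 9506 at low salinity and 5939 at low temperature. The 8 kept genes had a median log2 ratio of -0.28, with 0 at least 2-fold higher and 0 lower.

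Of those 8 genes, 5 were described as solute carrier family 22, a family of organic ion transporters, and all 5 had log2 ratios below 0, with a median log2 ratio of -0.22. The largest, TRINITY_DN27_c0_g1, had 17083 counts in control, 7986 at low salinity and 139 at low temperature, a ratio of 0.980 (0.954 to 1.01). TRINITY_DN294_c0_g1, another of the 5, shares its assembly number with a gene described as BH2 domain binding. Whether genes with this text encode transporters was not tested. TRINITY_DN1032_c0_g7, named SLC12A8 and described as a potassium-chloride symporter, had 105, 70 and 4 counts and a ratio of 1.40 (1.02 to 1.91). TRINITY_DN1032_c0_g2, which carries the same symporter text and the name DOCK6, had 46, 15 and 4 counts and a ratio of 0.684 (0.355 to 1.25). The 2 genes with symporter text thus lay on opposite sides of equal levels, one with an interval that includes them.

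The same near-absence held for the stress and housekeeping lists. The 61 chaperone genes had 18 counts in control, 3 at low salinity and 15182 at low temperature, and none was kept. Antioxidant and detoxifying enzymes (61 genes; 36, 17 and 9568 counts), cuticle and chitin proteins (34 genes; 12, 9 and 3843) and ubiquitin and proteasome genes (122 genes; 17, 8 and 10717) also had no kept member. Ribosomal proteins, chaperones and the proteasome are used by every living tissue, and 82 of the 114 ribosomal protein genes were at 0 in both the control and the low-salinity library. Muscle proteins, actin and tubulin, outside the mobile-element class, had 506 counts in control, 242 at low salinity and 55003 at low temperature. Hemocyanin, the oxygen carrier of crustacean hemolymph (TRINITY_DN12_c0_g1), had 13 counts in control, 10 at low salinity and 42385 at low temperature, and its ratio of 1.61 has an interval from 0.633 to 3.98. The glycolytic aldolase gene TRINITY_DN311_c0_g1 had 25, 10 and 654 counts (ratio 0.839, 0.359 to 1.81).

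Most of the kept genes that were most abundant in the low-temperature library were lower in low salinity than in control. Of 25 kept genes with more than 10000 low-temperature counts, 21 (84.0%) were at least 2-fold lower in low salinity than in control and 0 were higher, against 13.7% and 6.39% of all kept genes. Their median log2 ratio was -2.05, and 23 of the 25 carry no annotation, as do 2858 of the 3303 kept genes. TRINITY_DN5_c0_g1 had 589 counts in control, 51 at low salinity and 689530 at low temperature, 5.51-fold lower in low salinity (4.13 to 7.48). TRINITY_DN219_c0_g1 had 140, 13 and 205317 counts and a log2 ratio of -2.36. TRINITY_DN112_c0_g1 (111, 11 and 39505), TRINITY_DN589_c0_g1 (135, 13 and 24998) and TRINITY_DN144_c0_g1 (115, 12 and 15771) had log2 ratios of -2.27, -2.31 and -2.19.

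In each of these examples the gene was rare in control, rarer in low salinity and abundant in low temperature. The exceptions by direction were the mobile-element gene TRINITY_DN4_c0_g1 (log2 ratio 0.69) and the hemocyanin gene (0.69, with an interval that includes equal levels). Whether reads of the low-temperature library entered the control library, and in what share, was not tested. TRINITY_DN1_c1_g1, which carries the cox3 text, and TRINITY_DN3_c0_g1 also had more counts in low temperature than in low salinity. Unlike the examples above, TRINITY_DN3_c0_g1 was highest in control, with 60462 counts against 20781 at low temperature. Its contigs differed: i23 had 4316, 187 and 2 counts in control, low salinity and low temperature, and i9 had 4020, 437 and 7110.

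At the other end, 957 kept genes had 0 counts in the low-temperature library, and these too lay low: 249 (26.0%) were at least 2-fold lower in low salinity and 59 (6.17%) higher, with a median of -0.37. They had a median of 35 counts over control and low salinity, and 683 of them had 21 to 50. Of all kept genes with 21 to 50 counts, 19.7% were at least 2-fold lower, with a median of -0.14. How far the low-temperature classes repeat the gradient with abundance was not tested. The 585 genes with 11 to 100 low-temperature counts had a median of 0.18, with 14 lower and 20 higher, and the 145 with 101 to 1000 had a median of 0.36, both of which total counts take below 0. The 1553 genes with 1 to 10 low-temperature counts had a median of 0.01 and held 148 lower genes, 9.53% of their number, and 113 higher ones. The 38 genes with more than 1000 and up to 10000 had 14 lower and 3 higher. By share, lower genes were thus most frequent past 10000 counts, and by number most came from the genes with 0 to 10.

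**Figure D3:**
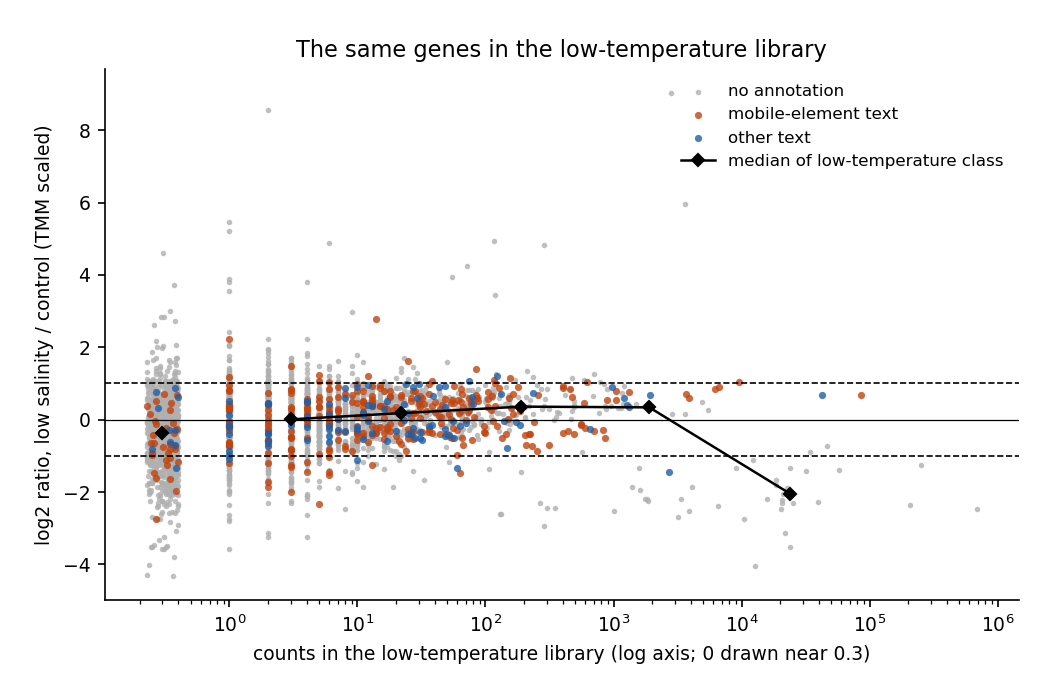
Log2 ratio of low salinity over control against the counts of the same gene in the low-temperature library (log axis, 0 drawn near 0.3 with horizontal jitter), with black diamonds for the median of each class of low-temperature counts and dashed lines at 2-fold. The medians run from -0.37 at 0 counts up to 0.36 at 101 to 1000 counts (below 0 under total counts) and down to -2.05 past 10000 counts. Genes at 0 low-temperature counts had a median of 35 counts over control and low salinity.

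The largest differences either way were in genes with no annotation, which make up 2858 of the 3303 kept genes. TRINITY_DN16_c0_g1 had 0 counts in control, 744 at low salinity (691.5 to 799.4) and 2835 at low temperature, at least 520.0-fold higher in low salinity against the floor of 3 counts, with an exact interval that begins at 421.8. TRINITY_DN705_c0_g1 had 0, 535 and 2 counts and was at least 373.9-fold higher against the floor, with an interval that begins at 303.0. TRINITY_DN139_c0_g1 had 20, 589 and 3631 counts, a ratio of 61.7 (39.6 to 101.8). The first and the third were thus also abundant at low temperature, and the second was close to 0 in both other libraries.

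Smaller genes of this kind fell into the same 2 patterns. TRINITY_DN139_c5_g1 (0, 27 and 72 counts) and TRINITY_DN139_c14_g1 (0, 22 and 55), of the same assembly number as TRINITY_DN139_c0_g1, had counts in low salinity and low temperature and none in control. TRINITY_DN254_c0_g1 (0, 44 and 116) and TRINITY_DN821_c0_g1 (12, 161 and 286) did likewise, apart from the 12 control counts of the latter. TRINITY_DN70826_c0_g1 had 0, 53 and 1 counts and TRINITY_DN2964_c0_g1 0, 42 and 6, with most counts in low salinity. In the lower direction TRINITY_DN1641_c0_g1 had 124 counts in control and 0 in both other libraries, at least 19.7-fold lower in low salinity against the floor, with an interval that begins at 15.8. TRINITY_DN3295_c0_g2 (117, 5 and 0) was 11.2-fold lower (4.65 to 35.0) and TRINITY_DN4311_c0_g1 (115, 5 and 0) 11.0-fold lower (4.57 to 34.4). These 3 genes were found almost entirely in the control library. With no sequence or annotation used here, none of them can be given a function.

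**Figure D4:**
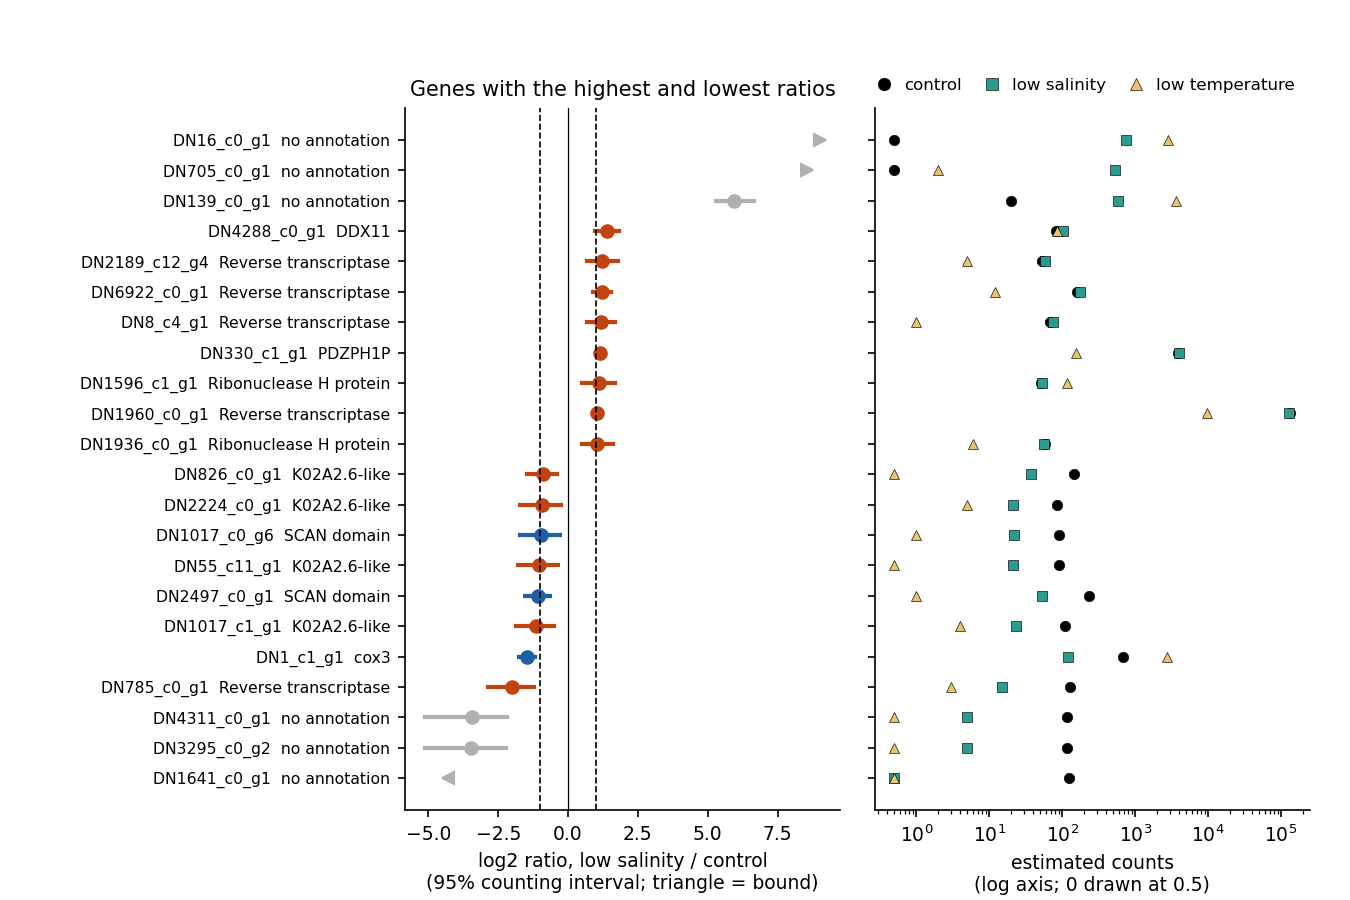
Left, log2 ratio with its 95% counting interval for the annotated and unannotated genes with the highest and lowest ratios among those with at least 100 counts (orange, mobile-element text; blue, other text; grey, no annotation; triangles, bounds against a count of 0). Right, their estimated counts in the 3 libraries on a log axis with 0 drawn at 0.5; the unannotated genes reach at least 520.0-fold against the floor, and the annotated ones stay between -2.00 and 1.40 in log2 ratio.

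Some sets of genes that the assembly placed under 1 DN number lay wholly on 1 side of equal levels. Of 42 such clusters with at least 8 kept genes, under TMM scaling 4 had every gene above 0 and 7 every gene below 0. Cluster TRINITY_DN125 had all 22 genes below 0, with 11 at least 2-fold lower, a median of -0.98 and 5706, 1723 and 9 counts in control, low salinity and low temperature, and none is annotated. Cluster TRINITY_DN607 had all 10 genes below 0 with a median of -1.18 and 0 low-temperature counts, and cluster TRINITY_DN107 had all 8 below 0 with a median of -1.27. Cluster TRINITY_DN55, with 7 mobile-element genes among 20, and cluster TRINITY_DN22 had medians of -0.77 and -0.80. On the other side cluster TRINITY_DN247 had 13 of 14 genes above 0, 5 of them at least 2-fold higher, and cluster TRINITY_DN214 had all 10 above 0 with a median of 0.70. Genes of 1 number share assembled sequence, so they are not independent measurements.

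Contigs of 1 gene could differ widely. For 613 genes with at least 2 contigs over 20 counts, 2832 contigs in all, the median spread between the highest and the lowest contig was 1.22 log2 units, and 190 genes had a spread of at least 2. Of the 528 such genes that were not past 2-fold, 288 had at least 1 contig past it, and 57 genes had contigs past it in both directions. In TRINITY_DN128_c7_g1, described by TOR signaling and mannose metabolism, contig i3 had 263 counts in control and 0 in low salinity, and contig i6 had 0 and 114. The gene itself had 575, 247 and 186 counts in control, low salinity and low temperature, a log2 ratio of -0.15 with an interval of the ratio from 0.773 to 1.05.

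TRINITY_DN29833_c0_g2 was similar, with 178 and 0 counts in contig i3, 0 and 125 in contig i9 and 218 and 125 in the gene (log2 ratio 0.27, interval of the ratio 0.957 to 1.50). In TRINITY_DN1_c1_g1 contig i6 had 195 counts in control and 0 in low salinity, and contig i2 had 321 and 27. Contig i3 had 152 and 54, and contig i8 had 0 and 30. None of these contigs carries the cox3 text of the gene. Contigs of 1 gene share sequence, and Salmon divides shared reads between them by estimation. The gene sums do not depend on how reads were divided within a gene.

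**Figure D5:**
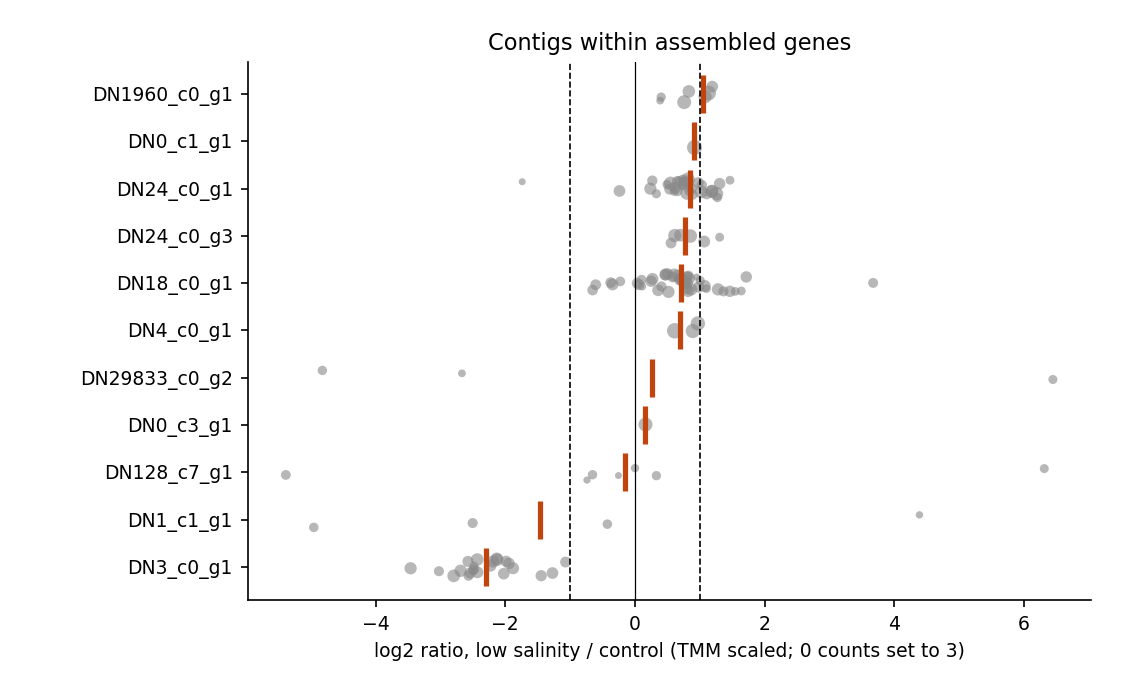
Log2 ratio of low salinity over control for single contigs with more than 20 counts (grey points, larger for more counts) in the 8 most abundant genes and the 3 genes with the widest contig spread, with the ratio of the whole gene as an orange bar, dashed lines at 2-fold and 0 counts set to 3. Contigs of TRINITY_DN128_c7_g1 lie far past 2-fold on both sides of a gene ratio of -0.15, while the contigs of TRINITY_DN3_c0_g1 all lie below -1.

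The authors' deposited table for the same contrast lists 26083 genes, each by 1 contig, with 383 above 0 and 328 below 0 at an adjusted p under 0.05. Of the 211 genes at least 2-fold higher here, 208 have a log2 fold change above 0 in the authors' deposited table, and 89 an adjusted p under 0.05. Of the 454 lower genes, 442 are below 0 in the authors' deposited table and 151 have an adjusted p under 0.05. Among all 3302 kept genes listed there, 294 are above 0 and 290 below 0 at that threshold. Both sets of values come from the same 2 libraries, so the shared direction is no independent check. With 1 library per condition those p-values in the authors' deposited table do not measure the spread between animals.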

How the data were processed

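RNA from whole animals was sequenced on the Ion Torrent S5 platform after TRIzol extraction, per the labels' protocols. The submitters' processing notes name Salmon 1.10.2, fastp 0.23.2 and FastQC 0.11.9. Which assembler and annotation tool made the contigs and their texts is not given in the sources. The authors deposited estimated counts per contig, which are whole numbers in the file. The table has 33093 entries for 31922 distinct contigs, because 1005 contigs are listed more than once, each time with identical counts, and repeats were dropped. The authors' deposited table of low salinity against control holds log2 fold changes with a standard error score and unadjusted and adjusted p-values, and the sources do not give the model behind them.

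Contigs were summed per assembled gene with pandas 2.3.3 in Python 3.11.15. Library sizes came from all distinct contigs, and TMM factors, 1.185 for control and 0.8441 for low salinity, from edgeR 4.0.16 in R 4.3.3 over the kept genes of these 2 libraries. With 1 library per condition no model was fitted. A gene counted as higher or lower when its log2 ratio was 1 or more from 0. Intervals are exact Poisson for counts, exact conditional binomial (Clopper-Pearson) for ratios and exact binomial for shares (scipy 1.17.1), at 95%; reads amplified without molecular identifiers are not independent molecules, so intervals and floors cover counting error only. The calculation was tested on simulated data. A gene belonged to a text class or list if any of its contigs carried the text, so 1 gene can be in several.

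Named genes were the 8 with the most counts, the 8 highest and 8 lowest annotated ratios and the 3 highest and 3 lowest unannotated ratios (interval leaving out equal levels, at least 100 counts), the most abundant member of each list, and the 3 genes with the widest contig spread. The histone, symporter, XIAP and TOR examples, the genes named for low-temperature counts, TRINITY_DN3_c1_g1, the smaller unannotated genes and the clusters were chosen after their values were seen. The members and lists were chosen with earlier results of these data known. Alternatives were 3 other scalings, 3 other count minimums, a prior count, the first listed or each single contig, all listed entries, leaving out the most abundant gene, and setting the class contig by contig.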

Additional observations from a re-analysis of the deposited data

How the results depend on the processing

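The 211 higher and 454 lower genes became 69 and 923 under total counts, 67 and 180 with more than 50 counts, 9 and 60 with more than 200 counts, 1353 and 2072 with no filter, and 432 and 941 with each contig on its own. Under median of ratios they were 225 and 439, under upper quartile 217 and 444, with the first listed contig 212 and 444, with a prior count of 0.5 212 and 401. Under total counts the median log2 ratios of the K02A2.6-like and SCAN domain texts were -1.05 and -1.19, past 2-fold. The mobile-element share of control counts was 58.810%, 60.557%, 65.677%, 46.845% and 48.382% with more than 50 counts, with more than 200 counts, with all listed entries, without the most abundant gene and with the class set contig by contig; in low salinity it was 65.505%, 66.856%, 71.912%, 54.106% and 54.974%, each above the control value. Of 445 values of 43 named genes over 11 settings, 321 moved by less than their counting interval, 123 moved further and 1 changed side: TRINITY_DN1596_c1_g1 had a log2 ratio of -0.57 with its first listed contig. The causes were not tested beyond what each setting changes by construction. No paired analysis was possible because each condition has 1 library and no replicate to leave out or pair. Depth limits the genes with few counts, where a floor of 3 counts sets the size of any bound. The cellular lists at or near 0 in control and low salinity hold many counts in low temperature, and what sets this difference was not tested.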
